A study of Drosophila melanogaster with 3 samples.

Results

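Peaks of the zinc finger protein Zif at head-to-head divergent promoters are described here. A peak belonged to this set when its summit fell at most 500 bp from each of 2 transcription start sites (TSSs) that belong to different protein-coding genes, lie on opposite strands and point away from each other, with the minus-strand TSS to the left of the plus-strand TSS and at most 500 bp between them. The rule uses positions only and no signal. It took 1672 of the 8630 summits of the irreproducible discovery rate (IDR) set, the authors' final set of peaks that rank alike in replicates, which is 19.4% (95% exact binomial interval 18.5 to 20.2%, counting error only). These 1672 summits lay at 1525 gene pairs and within reach of 2905 genes. A further 2985 IDR summits had a TSS of exactly 1 protein-coding gene within 500 bp and are called single-gene promoter summits, 291 lay near several coding genes in other arrangements, and 3682 had no coding TSS in reach.

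Chromatin immunoprecipitation with sequencing (ChIP-seq) was done on embryos of Drosophila melanogaster, whole and of mixed sex, at 0 to 24 h. All 3 biological replicates came from flies with a transgene for Zif (CG10267) fused to GFP at its C-terminal end, and there was 1 group, with no untagged or mutant embryos among the samples. An anti-GFP antibody was used for the precipitation according to the labels, whose antibody field names CG10267, and chromatin was sonicated to fragments of 200 to 800 bp. The labels do not say what drives the transgene or whether the replicates came from separate collections, and in whole embryos a peak can come from any of the cell types present. Each peak comes with its place on dm6 and the signal its caller gave it. The lists hold no read counts, so depth is unknown and a promoter without a summit was not shown to be free of the protein.

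In a head-to-head arrangement, a pair of genes is transcribed outwards from a short shared stretch of DNA, which can hold the upstream sequence of both promoters. Such pairs are common in the compact Drosophila genome, and many of them contain genes that are needed in most cells, for example for translation, respiration or DNA replication. Zif has a zinc finger-associated domain (ZAD) and C2H2 zinc fingers, and is known in Drosophila neuroblasts, the neural stem cells, as a regulator of the polarity kinase gene aPKC.

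The summit bases of 7 of the strongest members show what these sites look like. Each line gives the bases around the summit on the plus strand of dm6 (RefSeq sequence of Release 6), 5′ to 3′, in lower case. Capitals mark matches to the named motifs that are counted further on, on either strand. The summit is base 51, or base 50 for Vha55/Snx3. The stretch at CG8892/CG34126, whose summit lies in an annotated exon, and that at dup/SRPK are not printed, and 2 stretches are shorter because they end where an annotated exon begins. The stretches are chr3L:8600892-8600992 for Nelf-E/RpL14, chr3L:21304534-21304608 for CG11309/CG7632, chr3R:12627830-12627929 for Vha55/Snx3, chr3L:1645296-1645396 for alphaCOP/CG13919, chr3R:24109084-24109184 for eIF4EHP/CG18428, chr3L:19612282-19612382 for Lon/PIG-F and chr3R:14125621-14125721 for 140up/Polr2B.
Nelf-E/RpL14: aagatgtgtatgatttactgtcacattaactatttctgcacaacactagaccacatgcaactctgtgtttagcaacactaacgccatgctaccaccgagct
CG11309/CG7632: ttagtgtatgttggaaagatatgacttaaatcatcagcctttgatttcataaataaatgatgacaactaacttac
Vha55/Snx3: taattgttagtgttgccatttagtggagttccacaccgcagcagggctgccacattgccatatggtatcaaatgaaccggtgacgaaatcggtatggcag
alphaCOP/CG13919: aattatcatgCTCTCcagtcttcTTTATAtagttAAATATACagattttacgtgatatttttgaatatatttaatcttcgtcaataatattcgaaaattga
eIF4EHP/CG18428: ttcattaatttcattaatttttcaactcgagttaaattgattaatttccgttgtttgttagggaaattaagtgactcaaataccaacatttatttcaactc
Lon/PIG-F: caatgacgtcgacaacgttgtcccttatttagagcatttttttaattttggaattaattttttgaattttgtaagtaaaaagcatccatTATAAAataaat
140up/Polr2B: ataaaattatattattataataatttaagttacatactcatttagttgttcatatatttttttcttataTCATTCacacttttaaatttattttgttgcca
Their GC content ran from 15.8% at 140up/Polr2B to 48.0% at Vha55/Snx3. The stretches at Nelf-E/RpL14, CG11309/CG7632, Vha55/Snx3 and eIF4EHP/CG18428 held none of the 10 motifs. The stretch at alphaCOP/CG13919 held a part of core promoter motif 6, a GAGA match and a TATA match, that at Lon/PIG-F held a TATA match, and that at 140up/Polr2B held an initiator match.

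The first question is how often the arrangement itself carried a summit. Of 1995 head-to-head gene pairs in the Ensembl models, 1525 (76.4%, interval 74.5 to 78.3%) held an IDR summit at most 500 bp from both TSSs. Of 7960 single-gene promoters, which have no TSS of another coding gene within 1000 bp, 1952 (24.5%, 23.6 to 25.5%) had a summit within 500 bp. Over all 13945 protein-coding genes the share was 41%. A summit at a pair had to lie within 500 bp of both TSSs, so the window was narrower there than at a single-gene promoter. Pairs were counted by gene, and 89 member summits lay within reach of 2 or more pairs. Some pairs thus share a summit, though the interval treats them as separate.

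The same difference was present in each replicate when its own 8630 strongest peaks were used. Head-to-head pairs had a summit in 72.4% of cases in replicate 1, 81.9% in replicate 2 and 69.8% in replicate 3, against 24.1%, 25.8% and 22.1% of single-gene promoters in the same order. The 2 ranges did not overlap. The difference was 50.7 ± 4.70 percentage points (SD, n = 3), and the exact sign-flip permutation test over the replicates, two-sided, gave p = 0.25, the smallest that 3 replicates allow. If both genes of a pair carried a summit independently at the single-gene rate, 43.0% of pairs would have a summit at either gene. That rate comes from other genes, and it was 63.1% in the IDR set for single-gene promoters of the functional lists given below. A summit at either gene is also not the measure used for pairs, so the 43.0% is not an expected level for them.

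Close pairs in other orientations, added as a comparison after the data were seen, had summits less often in every replicate. Head-to-head pairs exceeded tandem pairs, whose TSSs lie on the same strand at most 500 bp apart, by 41.7 ± 3.78 percentage points (38.5 to 45.9, n = 3, exact sign-flip permutation p = 0.25). Of 233 tandem pairs 78 (33.5%) had an IDR summit. Head-to-head pairs exceeded facing pairs, whose TSSs point at each other, by 48.3 ± 6.50 percentage points (41.4 to 54.3, n = 3, exact sign-flip permutation p = 0.25). Only 29 facing pairs exist under the rule and 7 of them (24.1%, interval 10.3 to 43.5%) had a summit, and the gap to them was 15.2 points with only the most upstream TSS of each gene.

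**Figure D1:**
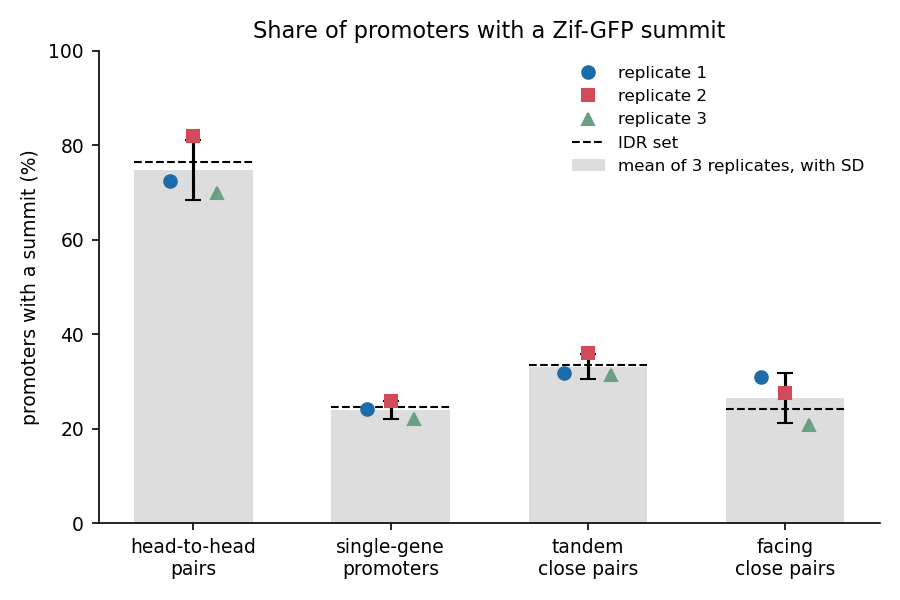
Percent of promoters with a summit (vertical axis) for head-to-head pairs, single-gene promoters, tandem close pairs and facing close pairs. Symbols are the 3 replicates, bars and whiskers their mean and SD, and dashed lines the IDR set; head-to-head pairs lie at 69.8 to 81.9% in the replicates, above every value of the other classes.

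Genes of related function were compared as well, since the classes hold different genes. Among genes of 12 functional lists, without the segmentation and Hox list, 241 of 273 genes with a head-to-head promoter (88.3%) had a member summit and 106 of 168 genes with a single-gene promoter (63.1%) had an IDR summit. In the replicates the head-to-head share was 85.3%, 94.1% and 84.2%, against 61.3%, 72.6% and 56.0% at single-gene promoters. The difference within these lists was 24.6 ± 3.43 percentage points (SD, n = 3, exact sign-flip permutation p = 0.25), smaller than the 50.7 points over all genes. It was not the same in every list. In the IDR set, 97.0% of cytosolic ribosomal protein genes with a head-to-head promoter and 87.1% of the 31 with a single-gene promoter had a summit, and for oxidative phosphorylation these shares were 82.1% and 40.5%. Proteasome genes went the other way, with 90.5% at head-to-head promoters and all 10 of the single-gene promoters, as did the spliceosome list, with 91.7% and 1 of 1. This comparison was also added after the data were seen. Genes of head-to-head pairs had 1.46 annotated TSS positions on average and single-gene promoters 1.37.

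The genes at the members fall into several functional groups, read here against the background that 76.1% of all 3815 genes with a head-to-head promoter had a member summit, with a median signal of 585 at those genes. Among 85 cytosolic ribosomal protein genes, whose products build the ribosome of the cytoplasm, 33 have a head-to-head promoter and 32 of these (97.0%) had a member summit, with a median signal of 1201. Among 73 mitochondrial ribosomal protein genes, 53 have such a promoter and 49 (92.5%) had a member summit, with a median of 652. For both groups the share and the median signal lay above the background. RpS15Ab was the cytosolic gene without a member summit, and mRpL38, mRpL46, mRpS14 and mRpS28 were the mitochondrial ones (named after their values were seen).

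RpL14 of the large ribosomal subunit shares its promoter with Nelf-E, a subunit of the complex that holds paused RNA polymerase II, and had the strongest member peak. RpS27, of the small subunit, had relative signals (signal over the median at all IDR peaks of the replicate) of 7.84, 13.1 and 8.46 in replicates 1, 2 and 3. RpL34b had 8.15, 11.3 and 7.69, and RpL7, 30 bp from the start of Ripalpha, had 7.62, 12.5 and 7.24. All 4 of these ribosomal protein promoters were highest in replicate 2. Among the mitochondrial genes, mRpS10 beside the arginine methyltransferase gene Art3 had 11.6, 6.86 and 11.1. mRpL23 had 9.97, 11.5 and 9.72. mRpL53, which shares its promoter with the Argonaute gene AGO1, had 8.06, 13.7 and 7.01, and mRpL44, beside the Brahma complex gene Snr1, had 7.99, 12.8 and 7.22. The mRpS10 promoter differed from the other 3 in being lowest in replicate 2.

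Genes of transcription followed. Of 71 genes for RNA polymerase, Mediator and TAF subunits, 46 have a head-to-head promoter and 39 (84.8%) had a member summit, with a median signal of 490. The strongest was Polr2B, the gene of the second largest subunit of RNA polymerase II, with relative signals of 9.08, 14.6 and 9.25 in replicates 1, 2 and 3. MED17 of the Mediator coactivator had 7.27, 13.5 and 8.21. Polr2J had 8.23, 11.3 and 7.08, and MED30, beside the translesion polymerase gene Rev1, had 8.11, 10.8 and 6.63. The share of this group was above the background and its median signal was below it. Of 12 spliceosome genes with such a promoter 11 (91.7%) had a member summit, with a median of 812, led by U4-U6-60K with 4.79, 11.9 and 7.23 and by snf, a protein of the U1 and U2 particles that shares its promoter with the kinase gene Cdk7, with 4.94, 7.87 and 4.39. U2af50 and U2af38, which encode the dimer that recognises the 3′ splice site, had signals of 1139 and 1077.

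Lists of translation and protein turnover lay on both sides of the background. Of 18 translation initiation factor genes with a head-to-head promoter 13 (72.2%) had a member summit, below the 76.1% over all such genes, with a median signal of 446. The strongest was eIF4EHP, whose product binds the mRNA cap and represses translation, with relative signals of 11.1, 10.7 and 11.3 in replicates 1, 2 and 3. eIF3h had 6.98, 11.4 and 6.76, and eIF2gamma had 5.14, 8.61 and 4.49. Of 20 aminoacyl tRNA synthetase genes 17 (85.0%) had a member summit, with a median of 521. GlyRS beside the pericentrin-like gene Plp had 6.17, 12.6 and 7.05, and SerRS had 6.49, 9.16 and 5.40. AlaRS-m, AsnRS-m and LeuRS-m, the synthetase genes without a member summit, encode mitochondrial enzymes (named after their values were seen). Of 21 proteasome genes 19 (90.5%) had a member summit, with a median of 573. Rpn2 beside the histone mRNA-binding gene Slbp had 7.40, 12.6 and 6.88, and Rpt5 beside RanBP3 had 6.13, 10.8 and 5.54. Prosalpha1 and Rpt3 had none (also named afterwards).

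Respiration genes had member summits at 32 of 39 head-to-head promoters (82.1%), with a median signal of 541. COX5B of complex IV had relative signals of 6.38, 10.3 and 5.79 in replicates 1, 2 and 3, and ND-42 of complex I, beside the cytochrome c heme lyase gene Cchl, had 5.06, 9.06 and 5.76. The 7 without a member summit were ATPsynG, ATPsynbetaL, ATPsynepsilonL, COX7AL, ND-19, ND-30 and ND-B16.6 (named after their values were seen).

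Cell cycle genes included several strong members. Of 11 replication genes with a head-to-head promoter 10 (90.9%) had a member summit, with a median signal of 1145 against 585 over all genes of this kind, and RPA3 had none (named after its value was seen). dup, the Drosophila Cdt1 that loads the replicative helicase, shares its promoter with the kinase gene SRPK and had relative signals of 9.65, 17.4 and 9.71. The helicase subunit genes dpa (Mcm4) and Mcm5 had mean relative signals of 7.69 and 7.43 (SD 2.73 for both, n = 3), and Mcm10 one of 7.57 (SD 2.90). These 4 promoters were all highest in replicate 2, as were most members. All 7 mitotic kinase and cyclin genes with such a promoter had a member summit, with a median of 604. The mitotic kinase gene aurA stood above the others of this list with a signal of 3086, against 668 for Cdk1, 643 for fzy and 604 for Mad1. Of 9 DNA repair genes 8 (88.9%) had a member summit, with a median of 985. hay, which encodes a helicase of TFIIH, had 2061, and Xpc, which recognises damage, had 1754.

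Patterning genes gave a different count. None of the 22 segmentation and Hox transcription factor genes has a head-to-head promoter by the rule, and so none could hold a member. Of 15 neuroblast polarity genes 4 have such a promoter and all 4 had a member summit. The member between aPKC and ckn had a signal of 3339 and relative signals of 6.33, 11.0 and 6.51 in replicates 1, 2 and 3, at rank 151 of the IDR set, with TSSs 323 bp apart. brat, beside Polr1D, had a signal of 758, par-6, the partner of aPKC, had 698 and loco had 567. In all, 9 member summits lay at pairs whose genes are both in a list. RpL28 and eIF1 share a promoter with signals of 1095 and 900 at 2 summits, mRpL39 and Prosbeta2 share one with 717, Cdk1 and mRpS7 one with 668, mRpL55 and ATPsynD one with 382, and Taf10b and Taf10 one with 381.

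Signal at the members was compared with the other classes. IDR signals of members ran from 204 to 7594, with a median of 528 and quartiles of 343 and 1083, against a median of 407 at single-gene promoter summits and 360 at summits with no coding TSS in reach. Members made up 54 of the 100 strongest IDR summits and 360 of the 1000 strongest, and the best of them ranked 2. Members had median relative signals of 1.29, 1.71 and 1.30 in replicates 1, 2 and 3, against 1.02, 1.18 and 0.992 at single-gene promoter summits, so members were higher in each replicate. The log2 ratio of these medians was 0.42 ± 0.10 (SD, n = 3), a ratio of 1.34, with p = 0.25 in the exact sign-flip permutation test. Within the stronger 4315 peaks alone the log2 ratio was 0.13 ± 0.13, and over summits alone in their interval it was 0.34 ± 0.12. A replicate value is that of the strongest peak over the whole interval in the replicate's relaxed list, which also keeps weak peaks, and 342 members shared their interval with another summit.

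The strongest members lay at promoters of varied function. The peak between Nelf-E and RpL14 (signal 7594, rank 2) had relative signals of 16.6, 22.7 and 13.1 in replicates 1, 2 and 3. The peak at CG11309/CG7632 (7276, rank 3) had 16.6, 16.3 and 15.9, the smallest spread among the 3 strongest. Its summit lay outside the gap, downstream of the CG11309 TSS. The peak between Vha55, a subunit gene of the vacuolar proton pump, and the sorting nexin gene Snx3 (5849, rank 8) had 13.1, 17.6 and 9.69. All 3 were over 9 times the median IDR peak in every replicate, and the peaks at Nelf-E/RpL14 and Vha55/Snx3 were highest in replicate 2.

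Further down, CG8892/CG34126 had relative signals of 10.6, 17.2 and 11.1, and alphaCOP/CG13919, at a coat protein gene of Golgi vesicles, had 11.3, 14.3 and 9.84. Lon/PIG-F, at the genes of a mitochondrial protease and of an enzyme of GPI anchor synthesis, had 10.2, 12.8 and 9.80. Brf/sds22 had 9.36, 13.7 and 8.92, and Bdp1/CG6565 had 8.90, 13.3 and 8.21. Brf and Bdp1 are the genes of subunits of TFIIIB, the initiation factor of RNA polymerase III. The peroxisome biogenesis genes Pex10 and Pex11ab lay at CG12099/Pex10 with 8.77, 14.0 and 7.77 and at Pex11ab/CG8320 with 9.57, 11.0 and 8.22. Genes of small GTPases lay at Rab8/Usp32 with 8.55, 14.7 and 7.58 and at CG5611/Mtl with 10.6, 8.10 and 10.3. Genes of cell division lay at Kmn2/CG2698, a kinetochore gene, with 9.11, 12.4 and 7.97, and at sti/tral, where sti encodes citron kinase, with 8.02, 14.4 and 7.47. CG5611/Mtl, Art3/mRpS10 and eIF4EHP/CG18428 were lowest in replicate 2, against the pattern of most of the 25 strongest members.

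The remaining members among the 25 strongest were CG9586/tai, where tai encodes a coactivator of the ecdysone receptor, with 9.56, 14.7 and 8.50, and E(var)3-9/CG11975 with 8.18, 14.2 and 7.19. CG8372/CG8360 had 10.2, 12.5 and 8.85, the pair that holds CG7369 had 7.67, 14.5 and 9.27, and CG13018/CG13016 had 8.92, 11.4 and 8.56. Over the 25, signals ran down to 4134, the rank of the last was 53, and the mean relative signal ran from 9.59 to 17.5.

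**Figure D2:**
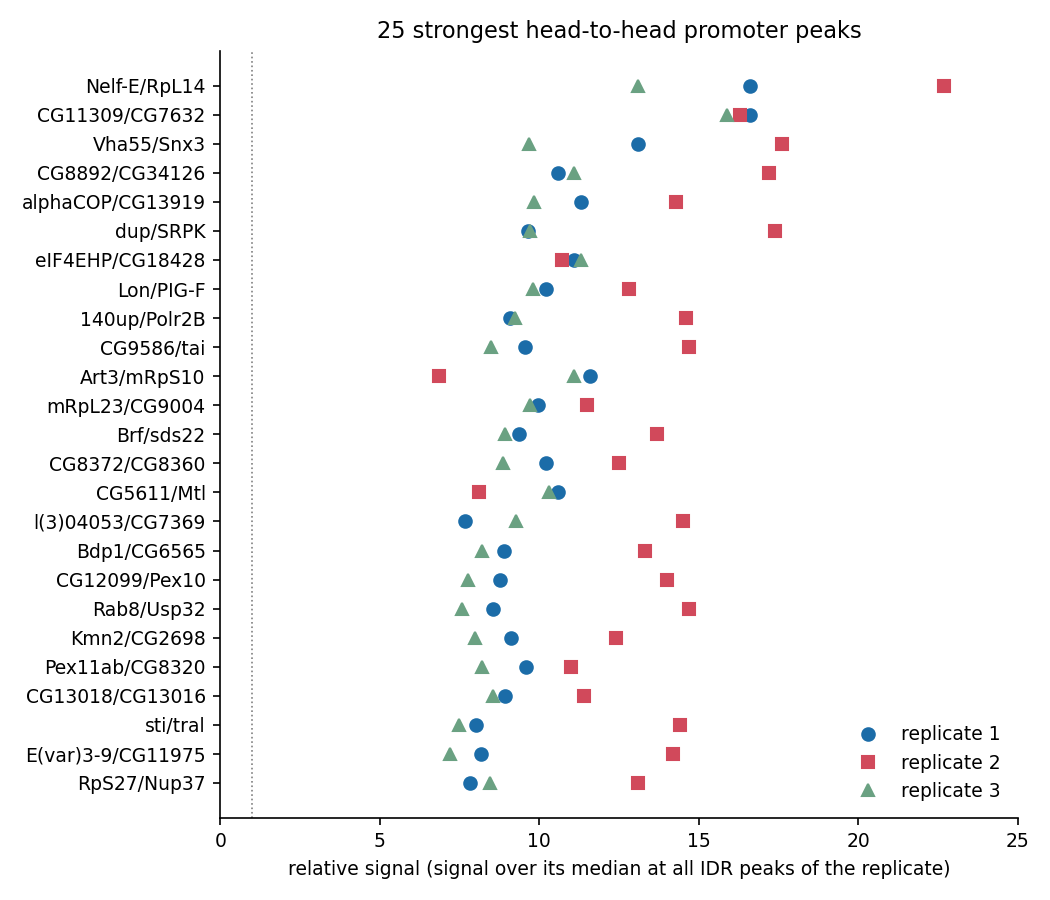
Relative signal (horizontal axis, signal over its median at all IDR peaks of the same replicate) of the 25 strongest members, with 1 symbol per replicate and a dotted line at 1. Nearly all squares, replicate 2, lie to the right of the other symbols, with exceptions such as Art3/mRpS10 at 6.86.

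Replicate 2 stood apart at the members. Of the 1672 members, 1312 (78.5%) had their highest relative signal in replicate 2 and 196 their lowest. The ratio of replicate 2 to the mean of replicates 1 and 3 had a median of 1.5 at members (quartiles 1.17 and 1.77), 1.30 at single-gene promoter summits and 0.641 at summits with no coding TSS. Head-to-head summits were 23.6% of the 8630 strongest peaks of replicate 2, against 18.0% in replicate 1 and 19.3% in replicate 3. The median signal at all IDR peaks was lowest in replicate 2, at 105, against 202 in replicate 1 and 142 in replicate 3; its part in these ratios was not tested. The order of members was alike all the same, with a Spearman's rho of 0.894 between replicates 1 and 2, 0.932 between 1 and 3, and 0.890 between 2 and 3, as a description across 1672 members that share a library in each replicate. The median coefficient of variation over the replicates was 28.1% (quartiles 17.5 and 37.3%).

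The members that departed most from this were weak peaks. Klc/CG10984, PDCD-5/MED10, CG9609/Sap30 and CG6276/CG44040 had no overlapping relaxed peak in replicate 2, with IDR signals of 207 to 358. Glg1/M6 had 1.31, 0.398 and 1.23 in replicates 1, 2 and 3. At the other end, DENR/CG4880 had 0 in replicate 1, 0.726 in replicate 2 and 0.237 in replicate 3. FeCH/RhoGAP100F, eIF2Bepsilon/Ocrl, Patronin/eIF3b and CG9084/Syx6 likewise lacked a relaxed peak in replicate 1 or replicate 3. In all, 1645 members (98.4%) had a relaxed peak in every replicate.

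Member summits lay mostly in the stretch between the paired TSSs. This was so for 1321 members (79.0%, interval 77.0 to 80.9%), and from the replicates' own summits for 77.9%, 70.6% and 73.5% in replicates 1, 2 and 3 (74.0 ± 3.67%, SD, n = 3). The summit was a median of 51.0 bp from the midpoint of the TSSs (quartiles 19.5 and 107 bp), and 58.5 ± 8.05 bp in the replicates. The median distance to the nearer TSS was 81.0 bp. At single-gene promoter summits 86.3% lay at or upstream of the TSS, with a median position of -89.0 bp relative to it. The distances at members are bounded by the rule and were not tested. Where a gene has several TSSs, the TSS was chosen for each summit. At Hat1/Rpn5, for example, the 2 summits were given TSSs 419 and 109 bp apart. The share between the TSSs and the distances thus depend in part on this choice. With only the most upstream TSS of each gene, 76.7% of members lay between the TSSs, at a median of 51.8 bp from the midpoint.

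Where the TSSs are farther apart, the rule leaves less room outside the gap, since the summit must lie within 500 bp of both, so the share between the TSSs is largely set by the rule there. Among the 651 members with TSSs at least 300 bp apart, the summit was a median of 117 bp from the nearer TSS and 281 bp from the farther, against 109 bp from the TSS at single-gene promoter summits. Of the 485 members with TSSs 201 to 300 bp apart, 341 (70.3%) had the summit in the middle 50% of the gap. This share was 62.0% at 301 to 400 bp and 55.6% at 401 to 500 bp. At Brf/sds22 the summit lay 133 bp from the start of Brf and 124 bp from that of sds22, at Art3/mRpS10 129 and 128 bp, and at E(var)3-9/CG11975 153 and 151 bp.

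**Figure D3:**
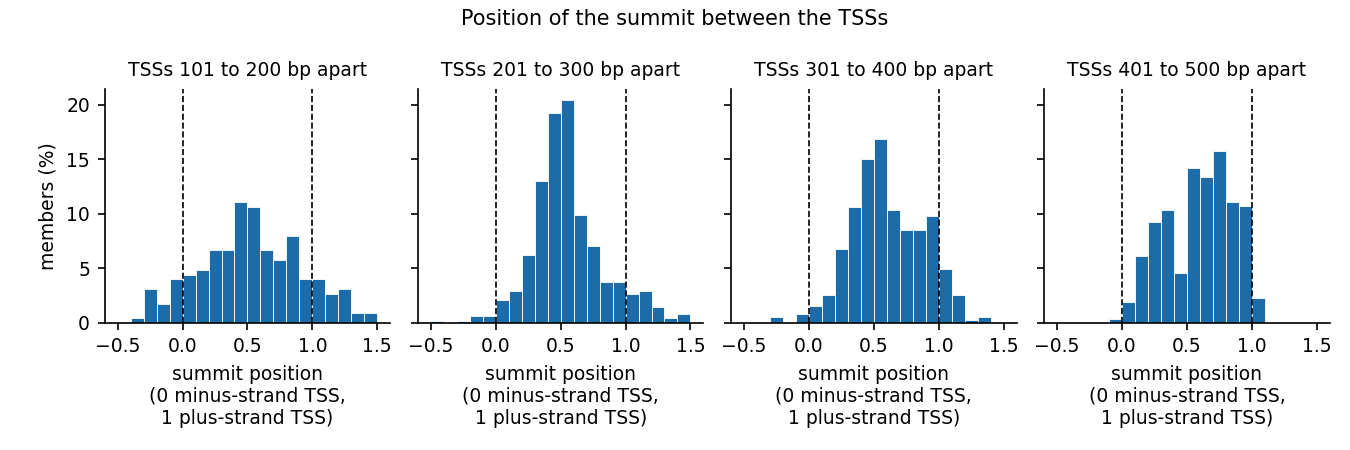
Percent of members (vertical axis) by position of the summit on a scale where 0 is the minus-strand TSS and 1 the plus-strand TSS (horizontal axis), in 4 classes of TSS distance. Summits gather near the middle at 201 to 300 bp, where 20.4% of members fall in the bin just right of the midpoint. At 401 to 500 bp they lean towards the plus-strand gene, and only 4.6% fall in the bin just left of the midpoint.

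A lean in genome coordinates accompanied these positions. The summit lay on the plus-strand gene's side of the midpoint, at the higher coordinate, in 955 members and on the other side in 709, with a median offset of 10 bp. The offset was 9.75, 27.0 and 19.5 bp in replicates 1, 2 and 3. Single-gene promoter summits showed the same lean, with a median of 83.0 bp upstream of plus-strand TSSs and 95.0 bp upstream of minus-strand TSSs. Pairs with 2 member summits are counted with both, and the weaker summit lay at the higher coordinate in 290 of those 294 pairs. The summit positions are those of the authors' peak caller. The part of the caller and of the second summits in the lean was not tested.

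The distance between the TSSs had a median of 265 bp over member summits (quartiles 136 and 356 bp, range 0 to 500). Over gene pairs, each counted once, it was 245 bp for all 1995 pairs and 214 bp for the pairs without a member summit. The value over summits counts pairs with 2 summits more than once, with TSSs chosen for each summit. It is thus not directly comparable with the values over pairs. The share of pairs with a summit was not even along this distance. It was 67.0% at 0 to 50 bp, 79.8% at 51 to 100 bp, 66% at 101 to 200 bp, 81.5% at 201 to 300 bp, 79.8% at 301 to 400 bp and 78.3% at 401 to 500 bp. The class of 101 to 200 bp was below the class of 201 to 300 bp in each replicate, with 63.5%, 70.5% and 59.6% in replicates 1, 2 and 3, against 80.6%, 85.1% and 76.4%. The median relative signal of members gave the same order, with 1.08, 1.48 and 1.01 at 101 to 200 bp, against 1.52, 1.87 and 1.43 at 201 to 300 bp. The intervals of the IDR shares, 60.8 to 70.9% and 78.0 to 84.7%, did not overlap either, though these classes were singled out after their values were seen and have no test. At 0 to 50 bp the shares were 63.2%, 80.8% and 57.1% in replicates 1, 2 and 3, below those at 101 to 200 bp in replicates 1 and 3.

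**Figure D4:**
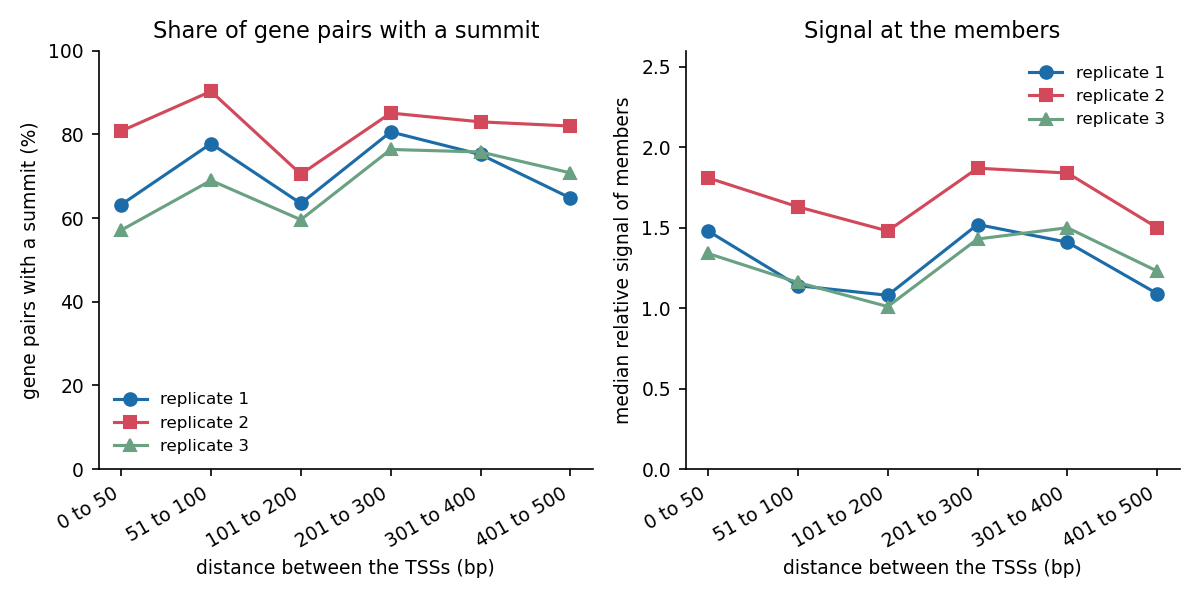
Percent of head-to-head gene pairs with a summit (left panel) and median relative signal of members (right panel) by the distance between the TSSs in bp (horizontal axes), 1 line per replicate. All 3 lines dip at 101 to 200 bp, where the share is 59.6 to 70.5%, and are higher at 201 to 300 bp, where it is 76.4 to 85.1%.

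Among the 100 strongest members, those with the narrowest gaps were E(z)/Cnep1r2 with TSSs 16 bp apart, CG8892/CG34126 with 27 bp and Ripalpha/RpL7 with 30 bp. E(z) encodes the histone H3 lysine methyltransferase of Polycomb complex 2, and its promoter peak had relative signals of 8.22, 10.3 and 8.45. The widest were mRpS23/CenG1A with 492 bp, CG14610/CG2656 with 429 bp and CG11779/nanos with 426 bp. At CG11779/nanos, nanos encodes a translational repressor of the posterior embryo and germ line. The stronger of the 2 summits there lay 67 bp from the start of CG11779 and 359 bp from that of nanos. The weaker, with a signal of 606, lay 72 and 149 bp from the starts, by another TSS of CG11779. At mRpS23/CenG1A the summit lay 387 and 105 bp from the starts, and at CG14610/CG2656 408 and 21 bp. For these wide members among the 100 strongest, the summit thus lay nearer to 1 gene than to the midpoint.

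Near the limit of the rule, members just inside 500 bp were Obp93a/Ice2 with its farther TSS at 495 bp and Fer1HCH/Fer2LCH at 493 bp. Ir60e/CG13585 at 490 bp and CG7156/14-3-3epsilon at 480 bp followed, and the signals of these summits ran from 239 to 593. At Fer1HCH/Fer2LCH, Ir60e/CG13585 and CG7156/14-3-3epsilon this was the weaker of 2 member summits. The stronger summits there had signals of 1229, 2337 and 687. Just outside lay rux/MCTS1 at 501 bp with a signal of 1849, CRAT/CG42564 at 503 bp with 412, the pair of the splicing factor gene SF1 at 503 bp with 499, CG9727/Zif at 507 bp with 2708 and Agpat2/prg at 508 bp with 222. The summit at the promoter of Zif itself, at rank 285 of the IDR set, was thus not a member.

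Bases at the member summits were richer in A and T than those at single-gene promoters. In the 101 bp around the summit the GC content was 33.9% at members, 36.5% at single-gene promoter summits and 30.4% at summits with no coding TSS in reach, and 39.2% in windows 150 bp to either side of the member summits. From the replicates' own summits, members were lower than single-gene promoter summits in replicates 1, 2 and 3, with differences of -2.68, -2.32 and -2.08 percentage points (mean -2.36 ± 0.304, SD, n = 3) and p = 0.25 in the exact sign-flip permutation test. Around the midpoint of the TSSs the GC content was 32.3% at pairs with a member summit and 37.8% at pairs without an IDR summit.

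**Figure D5:**
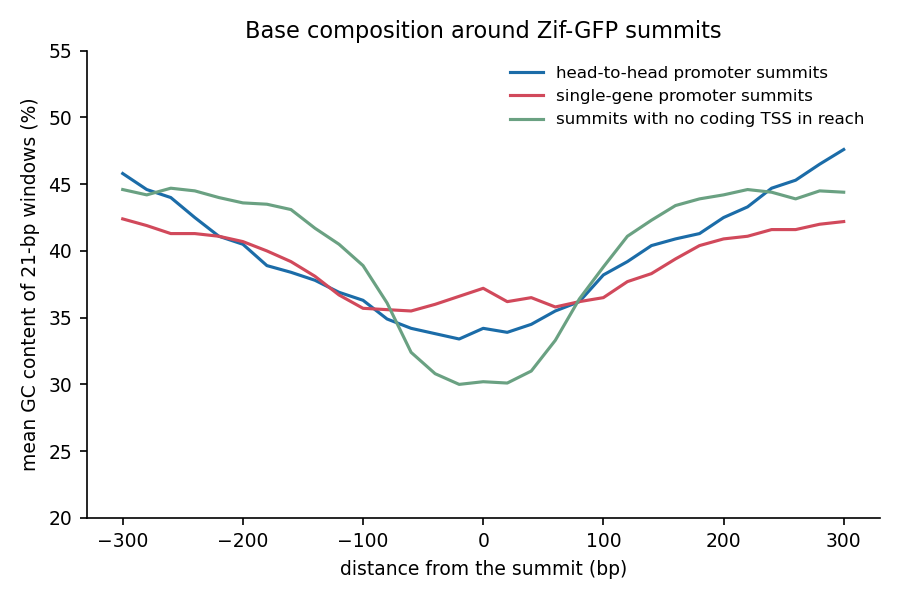
Mean GC content in percent (vertical axis) of 21-bp windows by distance from the summit in bp (horizontal axis) for members, single-gene promoter summits and summits with no coding TSS in reach. The line of the members is lowest near the summit, at 33.4% 20 bp to its left, and reaches 45.8% and 47.6% at the ends of the plot.

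Known core promoter motifs were counted on both strands within 50 bp of the summit. The DNA replication-related element (DRE), TATCGATA, was at 7.72% of members, against 6.93% of single-gene promoter summits and 0.435% of summits with no coding TSS. In the replicates the difference of members from single-gene promoter summits was 0.629 ± 0.739 percentage points (SD, n = 3, exact sign-flip permutation p = 0.50), within the replicate spread. Its core CGATA, which every DRE match contains, was at 30.7% of members, 29.1% of single-gene promoter summits and 10.1% of summits with no coding TSS. For CGATA the difference of members from single-gene promoter summits was 2.17 ± 1.63 points in the replicates (SD, n = 3, exact sign-flip permutation p = 0.25). Both words were less frequent away from coding TSSs.

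The largest differences between the promoter kinds were those of the GAGA site and the TATA box. The TATA box word TATAAA was at 23.0% of members and 18.5% of single-gene promoter summits, a difference of 5.04 ± 1.10 percentage points in the replicates (n = 3, exact sign-flip permutation p = 0.25). It was at 27.4% of summits with no coding TSS and 15% of windows 150 bp from the members, and these 4 shares stand in the reverse order of the GC content of their windows. The word GAGAG, the core of the site of GAGA factor, was at 6.28% of members and 9.01% of single-gene promoter summits, a difference of -3.25 ± 0.553 points (n = 3, exact sign-flip permutation p = 0.25), and at 14.3% of pairs without an IDR summit around their midpoint. The E-box word CAGCTG was at 7.95% of members and 7.27% of single-gene promoter summits, and motif 1, GGTCACACT, at 2.99% and 3.99%. Of all members, 584 (34.9%) held none of the 10 motifs in this window. Members with a DRE had median relative signals of 1.07, 1.48 and 1.00 in replicates 1, 2 and 3, against 1.32, 1.73 and 1.32 for members without one.

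Every word of 6 bases was also counted, 2080 in all with reverse complements merged. The 10 words with the largest gain at member summits over windows 150 bp to the side held only A and T, led by TTAAAA at 36.4% against 24.4% aside. Single-gene promoter summits had this word at 29.6% and summits with no coding TSS at 35.3%. Of the words with at least 2 bases of G or C, the largest gain was that of TATCGA, a part of the DRE, at 20.3% of members against 14.5% aside, with 19.1% at single-gene promoter summits and 3.91% away from coding TSSs.

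Of the 470 head-to-head pairs without a member summit, 155 (33.0%) had a summit in the pooled relaxed list, with a median signal of 149, and 122 had a relaxed summit in all 3 replicates. For comparison, 1455 of 6008 single-gene promoters without an IDR summit (24.2%) had a pooled relaxed summit. No relaxed summit of any list lay at 224 pairs, which is 11.2% of all head-to-head pairs. The strongest just below the IDR set were Lsm10/RpS15Ab with a pooled signal of 204, CG11122/Rpt3 and CG17266/Rpp25 with 203, and ScsbetaG/Sras and e(y)3/Rcd-1 with 202, each with a relaxed summit in all 3 replicates. RpS15Ab and Rpt3, given above as without a member summit, are among these.

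The arrangement was found along all chromosome arms. The share of head-to-head pairs with a summit was 71.9% on 2L and 79.3% on 3R, with 76.1% on 2R, 75.8% on 3L and 78.9% on X in between, and 4 of 7 pairs (57.1%) on chromosome 4 had one. The intervals of these shares overlapped. The median signal of members was 577 on 2L, 571 on 3L, 544 on 3R and 520 on 2R, against 419 for the 258 members on X and 238 for the 4 on chromosome 4.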

How the data were processed

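ChIP-seq peak lists of 3 replicates, their pooled relaxed list and the IDR set were used, all deposited by the authors. The signal value of each peak is the deposited one, from the peak caller; the sources used here do not state what it measures, nor the aligner, the caller or the IDR threshold. Per the file headers, pooling used replicates 2 and 3 and peaks were called against a control library, which was not analysed here. However, at 1303 members that share no interval, the pooled signal was a median of 0.989 times the summed signal of all 3 replicates and 1.70 times that of replicates 2 and 3, so replicate 1 was not taken as independent of the IDR set. Relaxed lists hold 30000 peaks each and no read counts, so depth is unknown. Replicates are separate by label only, and the spread between them may be technical. When all 3 replicates have the same sign, the exact sign-flip permutation test gives p = 0.25 whatever their spread. Such a p-value shows only that the replicates share a direction.

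TSSs are those of all Ensembl transcripts of protein-coding genes on BDGP6, which has the sequence of dm6. Replicate shares used the 8630 strongest peaks of each list; each replicate's value at a peak was taken from its strongest relaxed peak overlapping by 1 bp (0 with none) and divided by its median at IDR peaks. Differences were taken within each replicate and tested with an exact sign-flip permutation test, two-sided. The 95% intervals of shares are Clopper-Pearson intervals for counting error alone. Bases came from the RefSeq FASTA of Release 6. Named genes are the 25 strongest members with a relaxed peak in each replicate, aPKC and Zif, up to 4 members per list by signal (13 lists, some members given; 5 list symbols, CDC45L, SmG, U1-70K, h and mus308, had no match in the gene models and were not counted), the 5 highest and 5 lowest ratios of replicate 2 to the others, the 3 widest and 3 narrowest gaps among the 100 strongest, the 5 strongest pairs without an IDR summit and the 5 on either side of 500 bp, of which 1 is not reported here. Members, lists and tests were chosen with earlier results of these data known. The code was tested on simulated data. Python 3.11.15, numpy 2.4.6, pandas 2.3.3, SciPy 1.17.1 and matplotlib 3.10.9 were used. Alternatives changed the TSS window, the TSS spacing, the TSS chosen, the peaks kept, the motif window and the replicates.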

Additional observations from a re-analysis of the deposited data

How the results depend on the processing

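Among 132 recomputed values, no difference or ratio with a test reversed its sign. The rest are counts, shares and distances, which have no sign to reverse. Motif shares were recomputed at member summits only and GC content was not, so those differences from single-gene promoters were not checked. Shares and distances that moved beyond the replicate SD (for motif shares, the 95% interval), and counts that moved beyond 1.5 times, came to 37; differences and ratios with a test were held to their direction only, and some changed in size. With a TSS window of 250 bp, 61.6% of head-to-head pairs had a summit and the median distance from the midpoint was 32.0 bp; with 1000 bp, 74.5% of members lay between the TSSs. With TSSs at most 250 bp apart there were 797 members, 59.3% of them between the TSSs, at a median of 42.0 bp from the midpoint, and with 1000 bp 63.6% of pairs had a summit. The stronger 4315 peaks gave 1092 members, 53.9% of pairs, 83.8% between the TSSs and 42.0 bp, and summits alone in their interval gave 66.7% of pairs and 42.0 bp. Within 100 bp of the summit the shares were 14.7% for the DRE, 52.7% for CGATA and 13.0% for GAGAG; within 25 bp they were 4.31%, 18.5% and 2.93%. Among the stronger 836 members they were 6.22% for the DRE and 24.9% for CGATA. Leaving out 1 replicate at a time gave differences of 48.0 to 52.2 points from single-gene promoters, 39.6 to 43.3 from tandem and 45.3 to 51.7 from facing pairs, and log2 signal ratios of 0.36 to 0.46. The gap to facing pairs was 24.8 points with a window of 1000 bp, 26.4 points with a spacing of 250 bp and 15.2 points with the most upstream TSSs, and the log2 signal ratio was 0.13 within the stronger peaks. The cause of these changes was not tested beyond the narrower or wider windows themselves. Without read counts, a missing peak cannot be told apart from a lack of depth.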

Other observations

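Of the 1525 head-to-head pairs with a member summit, 294 held 2 of them and none held more. The separation of the summits in such a pair had a median of 203 bp (quartiles 200 and 209 bp, lowest 199 bp, highest 2856 bp). The weaker summit lay at the higher genome coordinate in 290 of the 294 pairs. Some pairs share the same 2 summits, as AGO1/mRpL53 and AGO1/CG33155 do, and many pre-mod(mdg4) gene models share 2 others. The 294 pairs are thus not all separate places, and the values given here count some places more than once. The stronger summit had a median of 2.12 times the signal of the weaker (quartiles 1.49 and 3.56) and a median signal of 766, against 536 for members at pairs with 1 summit. Examples, named after their values were seen, are dup/SRPK with 5149 and 1264, sti/tral with 4167 and 398, Fur1/Vps33B with 1628 and 331, and Hsc70-5/CG8531 with 1162 and 641. Whether these are separate sites or a feature of peak calling was not tested.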
